A study of Mus musculus with 4 samples.

Results

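Bnip3, Bnip3l, Fundc1, Pink1, Higd1a, Mgarp and Fam162a encode mitochondrial proteins that act in the removal of mitochondria or are linked to low oxygen. The 7 genes were chosen by name, with their values on these arrays already known, out of 27582 gene names. They were found through the array's gene names and accessions, with Mgarp listed as 4930583H14Rik and Fam162a as 2310056P07Rik, and they had 10 of the 41174 probes. All 10 probes were well above background, as the extraction software judges it, on all 4 arrays. At 5% O2, against 21% O2, 4 of the 7 genes were at least 2-fold higher in four-factor cells and 2 of the 7 in untransduced fibroblasts (MEFs), beside 1.26% and 2.56% of all measured genes, and none was 2-fold lower in either culture, beside 1.08% and 1.72%. Mgarp and Bnip3 had the largest differences of the 7 in both cultures, and Fundc1 and Pink1 the smallest in four-factor cells.

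Mitophagy is the removal of mitochondria by autophagy, in which a membrane sac closes around the organelle and delivers it to the lysosome. Bnip3, Bnip3l and Fundc1 are receptors in the outer mitochondrial membrane that bind the autophagy proteins of the LC3 family directly, whereas the kinase Pink1 gathers on depolarised mitochondria and phosphorylates ubiquitin, which draws autophagy adaptors to them. Hypoxia-inducible factors, or HIFs, are transcription factors that are broken down in oxygenated cells, and BNIP3, BNIP3L, HIGD1A and MGARP are known as genes that they raise in low oxygen.

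Total RNA from cultured mouse embryonic fibroblasts, which are connective tissue cells, was hybridised to 4 one-colour (Cy3) Agilent arrays, 1 per condition. The four-factor cells had received Oct3/4, Sox2, Klf4 and c-Myc by transduction, 4 transcription factors that together can reprogramme a fibroblast to pluripotency, and were kept for 72 hours at 5% or 21% O2, with day 4 in the sample label. The untransduced fibroblasts, called MEFs from here on, were kept for 10 days at 5% or 21% O2. The strain, the embryos, the vectors and the promoters that drive them are not given in the sources used here. No sorting of cells is described, so a four-factor sample may hold cells that did not take up all factors.

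A level is the log2 of a probe's signal relative to the 75th percentile of its array, so 0 is that percentile. The percentile was 1148 and 1136 intensity units in four-factor cells at 5% and at 21% O2, and 871 and 810 in MEFs at 5% and at 21% O2. Between 57.1% and 68.4% of probes were well above background and no spot was saturated. Replicate spots of a probe on 1 array differed with a standard deviation (SD) of up to 0.11 log2 units, which gives an SD of 0.15 for a difference between 2 arrays. This covers spot error, while the spread between cultures cannot be seen with 1 array per condition, so no difference below has a test. The 2 arrays of a culture lay on 1 slide of their own, in 1 scan, so transduction cannot be told apart from time in culture, slide or scan. As a check of the labels, Pou5f1 was at least 30.5-fold and 20.4-fold higher in four-factor cells than in MEFs at 5% and at 21% O2, and Myc was higher by 4.17 and 2.59 log2 units, while Klf4 was lower (log2 difference -1.70 and -1.14) and Sox2 lower too (-2.82 at 5% O2 and at least 5.14-fold at 21% O2). Probes outside the transduced part of a gene do not measure the transduced copy, and whether this holds for the Klf4 and Sox2 probes was not tested. All 12 fibroblast markers, among them Col1a1, Dcn and Thy1, were well above background on all 4 arrays.

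HIFs bind a short core, ACGTG or GCGTG, and the 250 bases before the transcript start are shown for 5 of the 7 genes because 4 of them were the genes higher by 2-fold at 5% O2 in four-factor cells and Pink1 was not. Sequences are from RefSeq (GRCm38.p6), all on the minus strand and written 5′ to 3′, with capitals where ACGTG or GCGTG reads on the gene's own strand or, as CACGT or CACGC, on the other. The regions are chr7:138909507-138909756 for Bnip3, chr9:121857797-121858046 for Higd1a, chr3:51396548-51396797 for Mgarp, chr16:36071562-36071811 for Fam162a and chr4:138326297-138326546 for Pink1.
Bnip3: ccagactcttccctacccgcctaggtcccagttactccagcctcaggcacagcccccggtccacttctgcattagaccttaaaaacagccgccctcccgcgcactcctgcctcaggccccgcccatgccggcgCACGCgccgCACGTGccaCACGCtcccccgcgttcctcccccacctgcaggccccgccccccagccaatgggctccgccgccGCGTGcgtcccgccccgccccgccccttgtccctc
Higd1a: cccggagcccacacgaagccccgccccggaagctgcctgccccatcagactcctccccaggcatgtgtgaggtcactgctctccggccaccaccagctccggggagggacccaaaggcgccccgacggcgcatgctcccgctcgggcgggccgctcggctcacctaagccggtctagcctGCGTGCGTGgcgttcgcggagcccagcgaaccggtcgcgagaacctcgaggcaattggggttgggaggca
Mgarp: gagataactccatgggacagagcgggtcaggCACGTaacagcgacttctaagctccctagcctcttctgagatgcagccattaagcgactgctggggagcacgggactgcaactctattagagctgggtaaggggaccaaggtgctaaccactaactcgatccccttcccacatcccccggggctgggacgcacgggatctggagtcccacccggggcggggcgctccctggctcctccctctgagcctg
Fam162a: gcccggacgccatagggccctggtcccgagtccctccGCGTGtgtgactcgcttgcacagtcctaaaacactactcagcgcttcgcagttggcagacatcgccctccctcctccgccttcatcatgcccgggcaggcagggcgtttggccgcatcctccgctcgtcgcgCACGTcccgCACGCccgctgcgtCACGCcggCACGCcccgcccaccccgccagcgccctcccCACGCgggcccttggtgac
Pink1: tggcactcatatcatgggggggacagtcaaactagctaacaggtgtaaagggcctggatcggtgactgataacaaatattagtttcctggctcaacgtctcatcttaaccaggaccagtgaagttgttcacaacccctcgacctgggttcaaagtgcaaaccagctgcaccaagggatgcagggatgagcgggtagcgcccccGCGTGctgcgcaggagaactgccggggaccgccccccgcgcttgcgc
The entry of Fundc1 lay with all 250 bases inside the annotated gene and was not used, and Bnip3l had no entry.

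Over both strands, Bnip3 held 2 matches to ACGTG, which overlap on opposite strands as CACGTG, and 3 to GCGTG, all between positions -117 and -31 (the base before the start is -1). Fam162a held 1 match to ACGTG and 5 to GCGTG, and 5 of these 6 lay at position -81 or nearer to the start. In Higd1a the 2 matches to GCGTG shared 1 base, at positions -70 to -62. Mgarp had a single match, to ACGTG at position -219, and Pink1 a single match to GCGTG at position -47. Of all 32851 promoter windows of this length, 38.6% held either core, 16.6% held ACGTG and 28.2% held GCGTG. Among the genes well above background on both four-factor arrays that had a window (11525 genes), 58.7% held either core and 24.0% held ACGTG. Of the 146 such genes that were at least 2-fold higher at 5% O2, 61.6% held either core and 36.3% held ACGTG. The shares went the other way in MEFs, where 41.3% of the 254 genes at least 2-fold higher at 5% O2 held either core and 18.9% held ACGTG, against 60.9% and 24.8% of the 10252 genes measured. The cores are therefore common in these windows, and a match describes the letters and does not show binding.

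**Figure D1:**
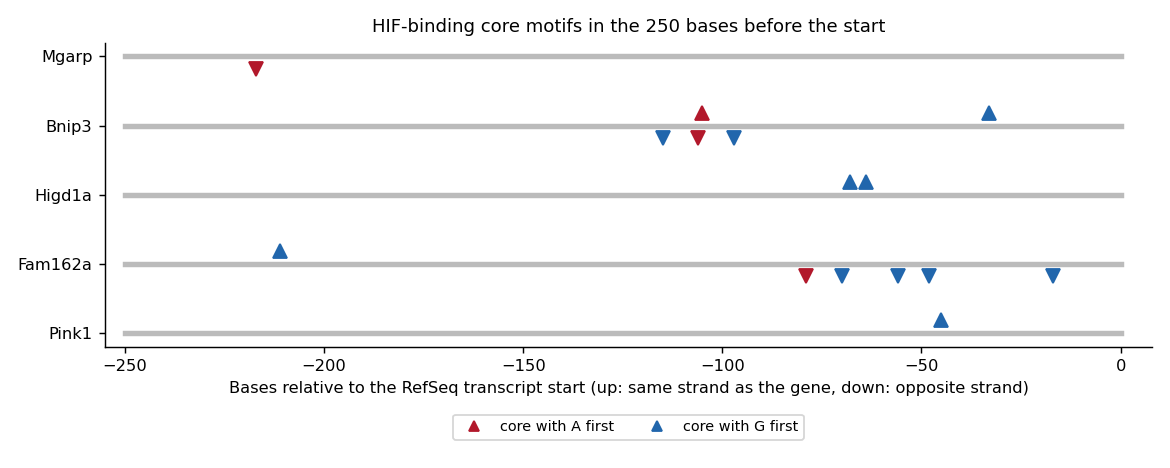
Position of each match to the core motifs ACGTG (red) and GCGTG (blue) in the 250 bases before the RefSeq transcript start of 5 genes (horizontal axis, bases). Triangles above a line are on the gene's strand and those below it on the other strand, and the map shows 5 matches in Bnip3 and 6 in Fam162a against 1 each in Mgarp and Pink1.

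Bnip3, the mitophagy receptor that also belongs to the BCL2 family of cell death proteins, was measured by probe A_51_P155234 (chr7:138729737-138729796, mouse build mm8, as for all probe positions). Its level was 4.79 and 1.70 in four-factor cells at 5% and at 21% O2, and 3.16 and 1.93 in MEFs at 5% and at 21% O2. The four-factor array at 5% O2 stood highest and the MEF array at 5% O2 came next, while both arrays at 21% O2 lay close together below them. Taken as 5% minus 21% O2, the log2 difference was 3.09 in four-factor cells, or 8.53-fold, rank 5 of the 17924 genes that both arrays measured well above background. In MEFs it was 1.23, or 2.35-fold, at rank 236 of 15193 genes. Four-factor minus MEF was 1.63 at 5% O2, or 3.09-fold, and -0.23 at 21% O2.

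Bnip3l, also called Nix, is the close relative of Bnip3 that clears mitochondria from maturing red blood cells. Its brighter probe, A_51_P269456 (listed at chr14:65939350-65939361), had a level of 3.16 and 2.58 in four-factor cells at 5% and at 21% O2, and 3.05 and 2.92 in MEFs at 5% and at 21% O2. The log2 difference of 5% minus 21% O2 was 0.58 in four-factor cells and 0.13 in MEFs. The second probe, A_52_P13612 (chr14:65940661-65940720), gave 0.67 and 0.16. Both probes thus placed the four-factor array at 5% O2 highest and the four-factor array at 21% O2 lowest, with a difference below 2-fold in each culture, and in MEFs about as large as the spot error. The order between cultures depended on the scaling, since four-factor minus MEF on the brighter probe, 0.11 at 5% and -0.34 at 21% O2, was -0.01 at 5% O2 with quantile normalization and 0.07 at 21% O2 with spike-in scaling.

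Fundc1, the receptor whose binding to LC3 is set by phosphorylation, was measured by A_51_P271725 (chrX:16713700-16713759). Its level was 1.40 and 1.57 in four-factor cells at 5% and at 21% O2, and 1.90 and 1.78 in MEFs at 5% and at 21% O2. With 5% set against 21% O2, the log2 difference was -0.16 in four-factor cells and 0.12 in MEFs, both close to the spot SD of 0.15. Within each culture the 2 arrays were therefore not separated by more than about the spot error. The MEF arrays stood above the four-factor arrays at both oxygen levels, with log2 differences of four-factor minus MEF of -0.50 at 5% O2 and -0.22 at 21% O2, which were 0.13 and 0.19 with spike-in scaling. Fundc2, its paralog, had log2 oxygen differences of -0.18 in four-factor cells and -0.38 in MEFs.

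Pink1, the kinase that starts the ubiquitin arm of mitophagy, was measured by A_51_P196605 (chr4:137585485-137585532). The 4 levels were 2.37 and 2.23 in four-factor cells at 5% and at 21% O2, and 2.64 and 2.37 in MEFs at 5% and at 21% O2. They spanned 0.41 log2 units, the narrowest range of the 7 genes. Taken as 5% minus 21% O2, the log2 difference was 0.14 in four-factor cells and 0.27 in MEFs.

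Higd1a encodes a small inner membrane protein that associates with complexes of the respiratory chain. Its brighter probe, A_52_P458697 (chr9:121701201-121701260), had a level of 5.26 and 3.56 in four-factor cells at 5% and at 21% O2, and 3.89 and 3.50 in MEFs at 5% and at 21% O2. The four-factor array at 5% O2 stood alone, and the other 3 lay within 0.4 log2 units of each other. The log2 difference of 5% minus 21% O2 was 1.70 in four-factor cells, or 3.24-fold, at rank 36, and 0.40 in MEFs, or 1.32-fold.

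The second Higd1a probe, A_51_P263310 (chr9:121698058-121698117), starts 3143 bases from the first. Its level was 0.76 and -0.81 in four-factor cells at 5% and at 21% O2, and 1.38 and 0.76 in MEFs at 5% and at 21% O2. The oxygen differences were like those of the first probe, at 1.58 in four-factor cells and 0.61 in MEFs. Between cultures the probes went opposite ways. Four-factor minus MEF was 1.36 at 5% O2 on the brighter probe and -0.61 on the other, and 0.06 and -1.58 at 21% O2. The gap between the 2 probes, 1.98 at 5% O2 and 1.64 at 21% O2, was beyond the 95th percentile of such gaps over genes with 2 probes (1.47 over 3870 genes and 1.22 over 3806 genes). A difference of Higd1a between cultures is therefore not settled by these probes. Of its paralogs, Higd2a had log2 oxygen differences of -0.19 in four-factor cells and -0.23 in MEFs, and Higd1b and Higd1c were not well above background on any array.

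Mgarp, also called HUMMR, is a mitochondrial protein that in neurons links to the transport machinery of Miro and Trak. Probe A_51_P240501 (chr3:51476498-51476557) gave a level of 0.52 and -3.93 in four-factor cells at 5% and at 21% O2, and -0.59 and -3.40 in MEFs at 5% and at 21% O2. Both arrays at 5% O2 were thus far above both arrays at 21% O2. With 5% set against 21% O2, the log2 difference was 4.45 in four-factor cells, or 21.8-fold, rank 2 of 17924 genes, and 2.82 in MEFs, or 7.05-fold, rank 5 of 15193 genes. The dim arrays had signals of 74.5 intensity units (four-factor cells, 21% O2) and 76.6 (MEFs, 21% O2), with spot errors of 10.4% and 12.1% of the signal by the extraction software. With the normexp background correction, which compresses low signals, the differences were 3.66 and 2.10. Four-factor minus MEF was 1.10 at 5% O2 and -0.53 at 21% O2, the latter -0.12 with spike-in scaling.

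Fam162a, whose human protein is known as HGTD-P and promotes cell death in low oxygen, had a level of 5.84 and 4.61 in four-factor cells at 5% and at 21% O2 on probe A_51_P115159 (chr16:35963693-35963752), and 4.63 and 3.82 in MEFs at 5% and at 21% O2. On this probe the four-factor array at 5% O2 was highest and the MEF array at 21% O2 lowest. The 2 in between did not differ beyond the spot error on this probe with the scaling used, but did on the second probe below. Taken as 5% minus 21% O2, the log2 difference was 1.23 in four-factor cells, or 2.34-fold, and 0.81 in MEFs, or 1.76-fold. The second probe, A_52_P563694 (chr16:35988053-35988112), matches a cDNA clone under the older name and gave 1.70 and 0.90. It starts 24360 bases from the first and was dim. Its level was -1.35 and -3.05 in four-factor cells at 5% and at 21% O2, and -2.66 and -3.56 in MEFs at 5% and at 21% O2. Its signal in MEFs at 21% O2 was 68.9 intensity units, with a spot error of 13.0%. On both probes Fam162a was higher in four-factor cells than in MEFs at each oxygen level, by 1.21 at 5% O2 and 0.79 at 21% O2 on the brighter probe and by 1.31 and 0.51 on the second. Its paralog Fam162b was too dim in four-factor cells to stand well above background and differed by 0.56 with oxygen in MEFs.

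**Figure D2:**
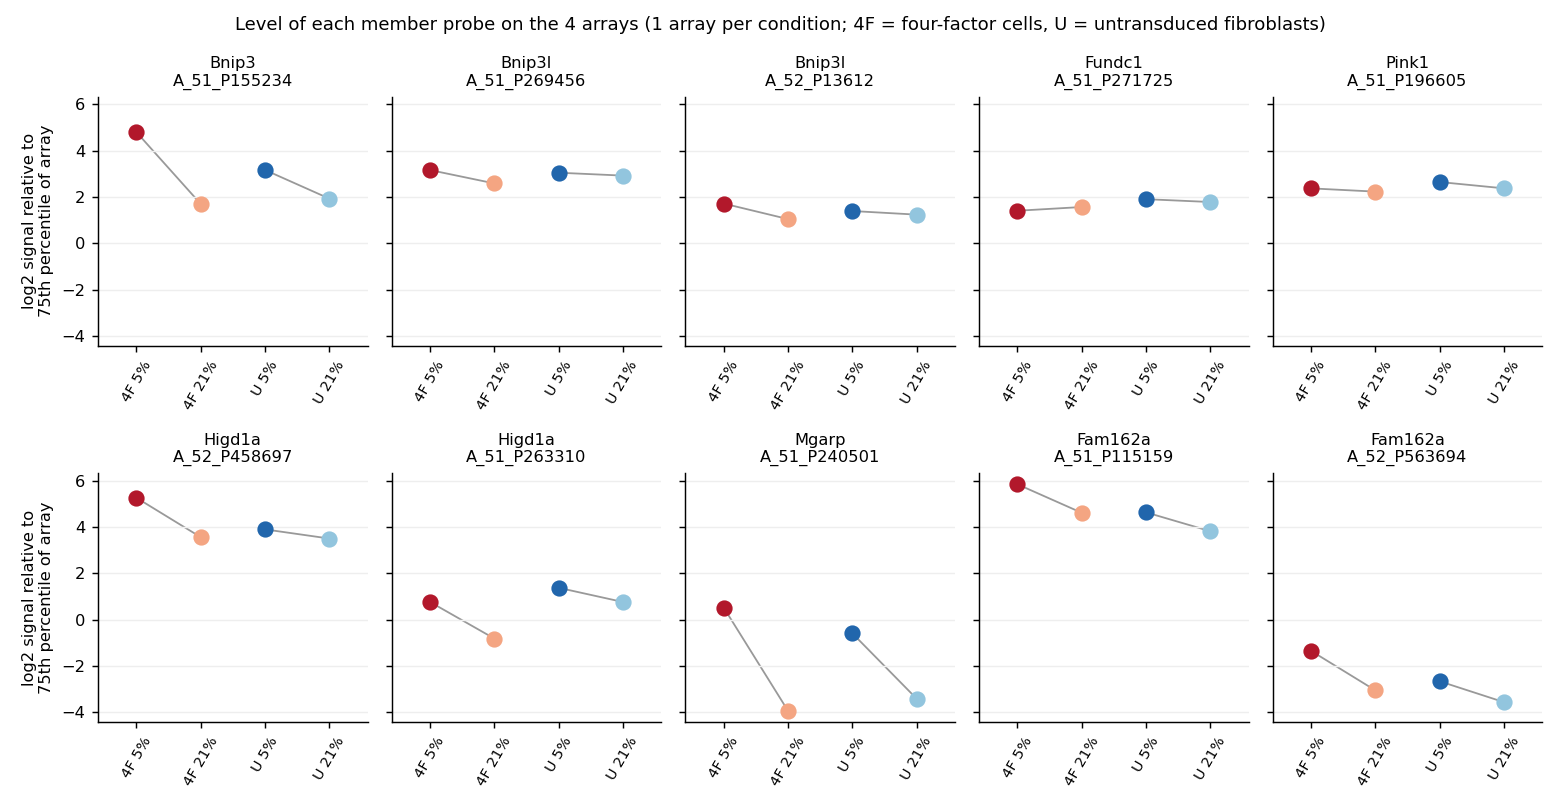
Level of each of the 10 member probes on the 4 arrays (vertical axis, log2 signal over the 75th percentile of the array), with four-factor cells (4F) at 5% and at 21% O2 left and untransduced fibroblasts (U) at 5% and at 21% O2 right in each panel and a line joining the arrays of a culture. Each point is 1 array, without an error, and the lines of Bnip3, Higd1a, Mgarp and Fam162a slope down towards 21% O2 while those of Fundc1 and Pink1 are nearly level.

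Read against all genes, 4 of the 7 members passed 2-fold upwards in four-factor cells (Bnip3, Higd1a, Mgarp and Fam162a), as did 1.26% of the 17924 genes measured there, and none passed it downwards, as did 1.08% of genes. The median log2 difference was 1.23 over the members and -0.01 over all genes. In MEFs 2 of the 7 members passed upwards (Bnip3 and Mgarp) beside 2.56% of 15193 genes, and none downwards beside 1.72%, with medians of 0.40 over the members and -0.04 over all genes. Genes at least 2-fold higher in both cultures numbered 33 of 14927, or 0.221%, and Bnip3 and Mgarp were 2 of them, while no member was among the 0.201% lower in both. Since the members were chosen with these differences known, the counts describe them and are no evidence about them as a class. In bulk RNA such as this, fewer cells of a type and less RNA per cell cannot be told apart.

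Markers of other cells moved with oxygen in the MEF cultures. Of 14 macrophage markers measured there, 13 passed 2-fold upwards at 5% O2, and the level summed over the 15 markers of the list, relative to the 75th percentile, was 38.7 at 5% and 17.5 at 21% O2, with Itgam not well above background. Adipocyte markers summed to 88.0 at 5% and 39.1 at 21% O2, where 2 of 6 were measured on both arrays (Fabp4 and Lpl, both at least 2-fold higher), and Cfd and Cidec were not well above background on either. Neural and glial markers summed to 7.0 and 3.52, with 4 of 5 measured at least 2-fold higher. In four-factor cells the macrophage sum was 0.81 at 5% and 0.98 at 21% O2, none of 8 measured markers was 2-fold apart, and Adgre1, Ptprc, C1qa and Mrc1 were not well above background. The adipocyte sum there was 1.69 and 1.60, and the neural and glial sum 6.35 and 6.85, with 1 of 6 measured neural and glial markers at least 2-fold higher (Mbp, 1.02). The part of these cells in the oxygen differences of Bnip3 and Mgarp in MEFs was not tested. Markers of erythroid cells, in which Bnip3l is best known, were well above background for at most 3 of 9 genes on any array, with sums of 0.66 and 0.73 in four-factor cells and 0.15 and 0.09 in MEFs at 5% and at 21% O2. In the same order the sums were 1.5, 1.20, 0.70 and 0.42 for endothelium and 5.28, 7.55, 3.20 and 7.85 for skeletal muscle. With oxygen in four-factor cells, 1 of 5 measured endothelial markers (Cldn5, 2.68) and 1 of 4 muscle markers (Myh8, 1.02) were at least 2-fold higher. In MEFs, Tek (1.72) was higher and Emcn (-1.79) lower of 3 endothelial markers, and Acta1 (-1.74) was lower of 4 muscle markers. The part of these cells in the members' differences was not tested either.

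**Figure D3:**
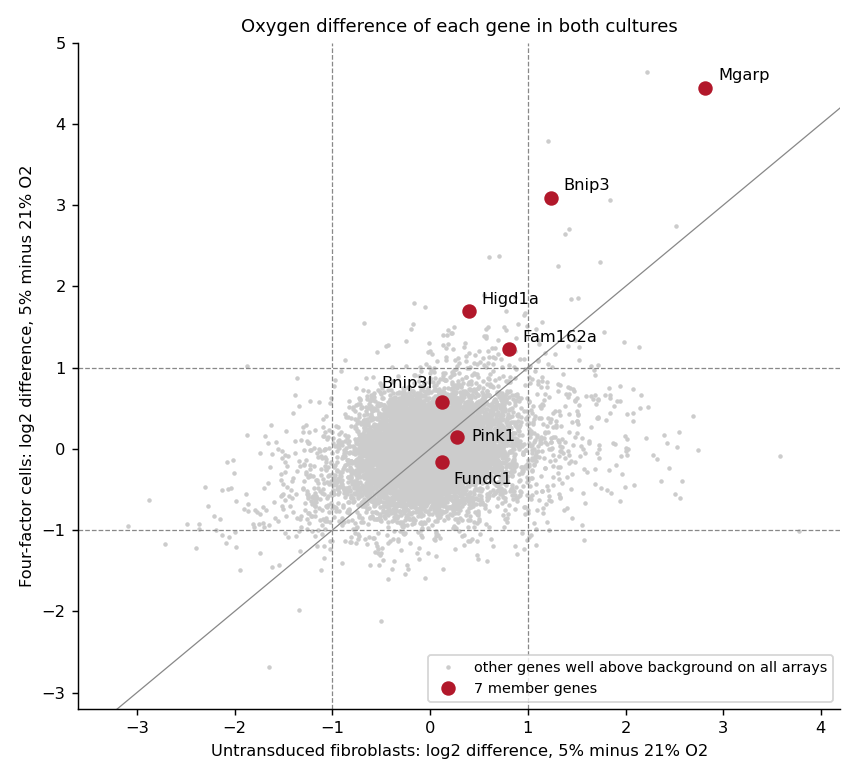
Log2 difference of 5% minus 21% O2 in four-factor cells (vertical axis) and MEFs (horizontal axis) for each gene well above background on all 4 arrays (grey) and the 7 members (red). Dashed lines mark 2-fold and the solid diagonal equal differences: Mgarp and Bnip3 lie beyond 2-fold on both axes, Higd1a and Fam162a on the vertical axis alone, and Bnip3l, Pink1 and Fundc1 within 2-fold on both.

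The oxygen difference in four-factor cells minus that in MEFs sets the 2 cultures against each other. Like each oxygen difference, it is a value from which an effect common to a slide cancels. It was 1.86 for Bnip3, 1.63 for Mgarp and 1.30 for Higd1a, at ranks 17, 39 and 91 of 14927 genes measured on all 4 arrays. These 3 of the 7 members passed 2-fold upwards, as did 1.74% of all genes, and none downwards, as did 2.93%. For the other members it was 0.45 (Bnip3l), 0.42 (Fam162a), -0.13 (Pink1) and -0.28 (Fundc1). The second probes gave 0.96 for Higd1a, 0.51 for Bnip3l and 0.80 for Fam162a, so Higd1a passed 2-fold on 1 of its 2 probes. This is 1 value from 4 single arrays, and it has no test. The cultures also differ in age and in time at the stated oxygen level, which was shorter for four-factor cells than for MEFs. In this value, transduction therefore cannot be told apart from the length of exposure to low oxygen.

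Between cultures at 5% O2, 4 of the 7 members were at least 2-fold higher in four-factor cells (Bnip3, Higd1a, Mgarp and Fam162a), as were 17.1% of 15447 genes, while 20% of these genes were 2-fold lower. The count was 3 with the mean over probes, where Higd1a was at 0.37 because its second probe went the other way (-0.61), and 3 with quantile normalization, where Fam162a was at 0.97. At 21% O2 none of the 7 members passed 2-fold in either direction, against 11.8% of 15213 genes higher and 16.6% lower. The members' median log2 difference of four-factor minus MEF was 1.10 at 5% O2 and -0.22 at 21% O2, and that of all genes was -0.02 at both. Bnip3 and Mgarp were higher in four-factor cells at 5% O2 and lower at 21% O2. With spike-in scaling, however, the difference at 21% O2 was 0.18 for Bnip3 and -0.12 for Mgarp. Mgarp was dim at 21% O2, with signals of 74.5 in four-factor cells and 76.6 in MEFs. Fam162a was higher in four-factor cells at both oxygen levels. These 2 comparisons share no array with each other but share each of their arrays with an oxygen comparison. The fibroblast markers summed to 759 in four-factor cells and 1351 in MEFs at 5% O2, and to 876 and 1414 at 21% O2, with 8 of 12 at least 2-fold lower in four-factor cells at each oxygen level. The part of this in the members' differences was not tested.

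The rest of the mitophagy machinery did not share the oxygen difference of Bnip3 at the 2-fold threshold. Of 18 other receptors, adaptors and enzymes of the ubiquitin arm measured in four-factor cells, none was 2-fold apart with oxygen and their median was -0.07, with a range of -0.58 (Optn, an autophagy adaptor) to 0.52 (Nipsnap1, a mitochondrial protein that recruits autophagy adaptors). In MEFs none of 17 was 2-fold apart and the median was -0.14. Among 28 genes of the core autophagy machinery, none passed 2-fold in either culture. Their medians were -0.19 in four-factor cells, where 24 of 28 were below 0, and -0.06 in MEFs, where 18 were. The 15 genes of mitochondrial fission, fusion and transport, which include the Miro and Trak partners of Mgarp, had medians of -0.01 and -0.11 and none past 2-fold. Of 15 import, channel and content genes, Vdac1, the main channel of the outer membrane, was lower in four-factor cells at 5% O2 (log2 difference -1.08, levels 4.43 and 5.51 at 5% and at 21% O2), and the other 14 did not pass 2-fold there. In MEFs none of the 15 did.

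The lists built around low oxygen held more genes past 2-fold. Of 9 measured genes of other mitochondrial proteins linked to hypoxia, 3 were at least 2-fold higher at 5% O2 in four-factor cells. They were Pdk1, the kinase that keeps pyruvate out of mitochondrial oxidation, at 2.64, Ak4, an adenylate kinase of the matrix, at 1.47, and Hk2, a hexokinase that binds the outer membrane, at 1.01. In MEFs Pdk1 (1.38) and Ak4 (1.08) were the 2 of 10 that passed. The list's median was -0.15 and -0.14 in the 2 cultures, with 5 of 9 and 6 of 10 genes below 0. Of 16 other HIF targets, 9 passed 2-fold upwards in four-factor cells (median 1.05) and 3 in MEFs (median 0.58). The largest were Slc16a3, a lactate exporter, at 4.64 in four-factor cells and 2.22 in MEFs, Egln3, a prolyl hydroxylase that marks HIF for breakdown, at 3.06 and 1.84, and Ankrd37 at 2.75 and 2.52. The difference of Mgarp thus stood beside that of Slc16a3, and that of Bnip3 beside that of Egln3 in four-factor cells.

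**Figure D4:**
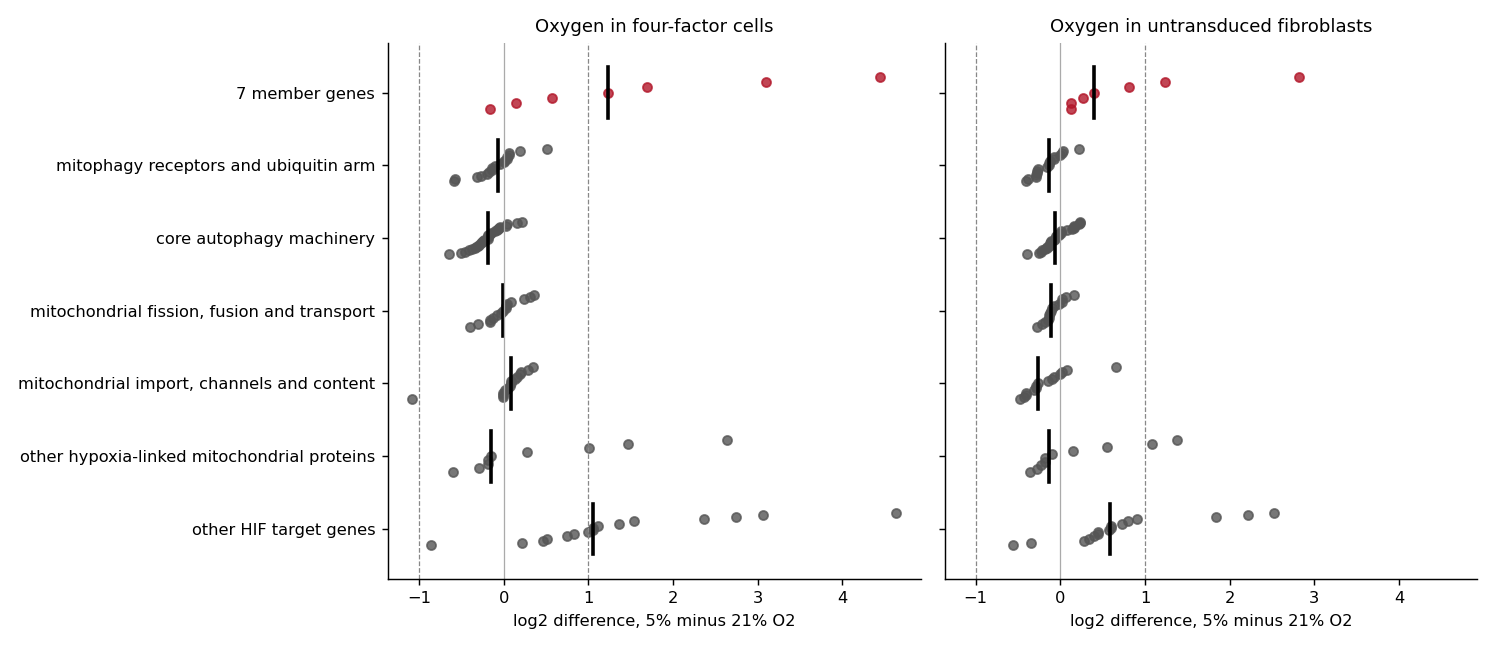
Log2 difference of 5% minus 21% O2 for the 7 members (red) and for the measured genes of 6 lists (grey) in four-factor cells (left) and MEFs (right), with a black bar at each median and dashed lines at 2-fold. Points of the mitophagy and autophagy lists lie between the dashed lines, and points past 2-fold on the right of each panel belong to the members, the hypoxia-linked mitochondrial proteins and the HIF targets.

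Differences between cultures were wider over the whole array, where 17.1% of genes were at least 2-fold higher and 20% lower in four-factor cells at 5% O2, and 11.8% higher and 16.6% lower at 21% O2. At 5% O2, 5 of the 17 other mitophagy genes were at least 2-fold higher in four-factor cells than in MEFs, led by Nipsnap1 at 1.87 and Phb2, an inner membrane receptor, at 1.24, and 1 was lower, Spata33 (-1.83), a receptor of male germ cells. At 21% O2 the adaptor Optn was higher by 1.53 and Spata33 was lower (-1.51). Core autophagy genes were at least 2-fold lower in 5 of 28 cases at 5% O2, among them Atg10 (-1.74), which conjugates Atg12 to Atg5, and Gabarap (-1.27), an LC3 relative, and in 2 of 28 at 21% O2, Atg10 (-1.43) and the protease Atg4a (-1.03). Import and content genes were higher in 5 of 15 cases at 5% O2, with the chaperonin Hspd1 at 2.12 and the import receptors Tomm70a at 1.68 and Tomm20 at 1.56, and in 3 of 15 at 21% O2, while Ppargc1a, a driver of mitochondrial growth, was lower at both oxygen levels (-2.25 and -1.59). Of the fission, fusion and transport genes, Mief2, an adaptor of fission, was lower at both oxygen levels (-1.03 and -1.34). The hypoxia-linked mitochondrial proteins passed 2-fold upwards in 4 of 9 cases at 5% O2, led by Hk2 (2.73) and Ak4 (1.83), and in 2 of 9 at 21% O2. Of the 16 HIF targets 8 were higher and 2 lower at 5% O2, and 3 higher and 4 lower at 21% O2, with Egln3 highest at 4.24 and 3.01.

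For the 4 members whose arrays spanned at least 1 log2 unit, the genes with the nearest profile over the 4 arrays were found by Euclidean distance between profiles centred on their own mean, among 12684 genes. Nearest to Bnip3 were Pdk1 (distance 0.45 log2 units), Slc2a1, a glucose transporter (0.69), and Prelid2 (0.79). Nearest to Mgarp were Slc16a3 (1.21), Smtnl2 (1.35) and Bnip3 itself (1.53), so no measured gene had a profile as near to Mgarp as Pdk1 had to Bnip3. Higd1a had Pfkfb3, which makes an activator of glycolysis (0.28), Catsperz (0.36) and Rab33a (0.38), and Fam162a had Tfcp2l1 (0.13), Spock2 (0.17) and Mbp (0.21). The profile of Higd1a is that of its brighter probe, from which its other probe departed between cultures. A profile of 4 arrays is short, and small ranges find near neighbours more easily. Centred profiles also leave out the level, and some of these genes were dim. Levels ran from -4.57 to -2.60 for Tfcp2l1 and from -4.15 to -2.33 for Spock2, against 3.82 to 5.84 for Fam162a. They ran from -4.92 to -3.03 for Catsperz and from -5.46 to -1.66 for Smtnl2.

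The genes next to the members on the chromosome were also read. All 14 neighbours had a probe, 10 were measured on both four-factor arrays, and none of these passed 2-fold with oxygen, with differences from -0.69 (Ackr2, beside Higd1a) to 0.99 (Pnma2, beside Bnip3l). In MEFs 9 were measured and differed by -0.30 to 0.27. Beside Mgarp, Elf2 differed by -0.14 and -0.13 in four-factor cells and MEFs and Ndufc1 by 0.13 and -0.16, and beside Bnip3, Ppp2r2d differed by 0.09 and -0.12. Jakmip3, on the other side of Bnip3, was well above background on the four-factor array at 5% O2 alone, at a level of -6.54, which makes it at least 1.24-fold higher there than at 21% O2 and leaves the size of its difference unknown. Dusp21, beside Fundc1, was well above background on the MEF array at 21% O2 alone and at least 2.56-fold lower in MEFs at 5% O2. Both neighbours of Mgarp and 1 of the 2 of Bnip3 were thus measured in each culture, and these 3 differed by less than the spot SD or close to it.

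**Figure D5:**
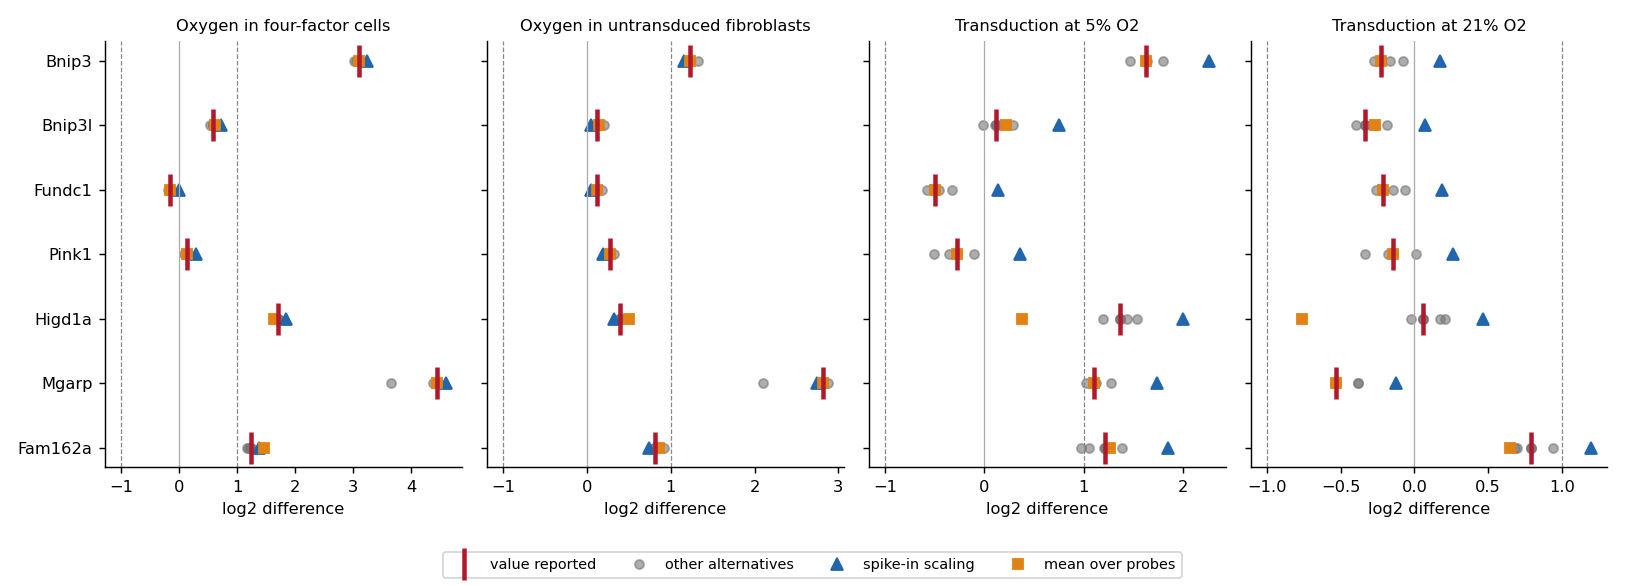
Log2 difference of each member in the 4 comparisons (5% minus 21% O2 in the 2 left panels, four-factor minus MEF in the 2 right panels) as reported (red bar) and under 8 alternatives to the processing, with dashed lines at 2-fold. The oxygen differences of Bnip3 stay between 3.02 and 3.24 in four-factor cells, whereas the differences between cultures move up with spike-in scaling and that of Higd1a moves down with the mean over probes.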

How the data were processed

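Per the file headers, the scanner images were processed in Agilent Feature Extraction, version 9.5.3.1, under GE1-v5_95_Feb07 for design 014868. The main value is the processed-signal intensity that the authors deposited; the headers record background subtraction and detrending inside an array and no scaling across arrays. Unprocessed mean and background intensity are deposited beside it. Per the labels, Trizol was used for RNA and Quick Amp (5.7) for labelling. The authors also deposited log2 values, made with software that the sources used here do not name. On comparison these were the processed signal on a log2 scale with the 75th percentile of the array subtracted (99.9% of probes matched to 0.001), not centred per probe, with medians of -3.86, -3.86, -3.69 and -3.70 in four-factor cells at 5% and at 21% O2 and MEFs at 5% and at 21% O2.

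Here, outlier spots were dropped, replicate spots averaged, and log2 taken relative to the 75th percentile. Each gene was represented by the probe with the highest mean level. Gene names are the array's, updated for 24375 probes through a RefSeq table (GRCm38.p6); probe positions are those of build mm8, with no annotation of that build used. A gene was counted at 2-fold or more (log2 difference of 1) if well above background on both arrays. With 1 array per condition there was no test. The counting was tested on simulated data. The members, the 6 pathway and 7 marker lists and the naming rule were chosen with earlier results of these data known. Named genes were the members, their paralogs, up to 4 listed genes per list, direction and comparison past 2-fold, the 3 nearest profiles and up to 3 markers per cell type; further markers, chromosome neighbours and the extremes of lists were named after their values were seen. A gene the rule covers is not reported here. Alternatives were normexp (limma 3.58.1, offset 50), quantile, median and spike-in scaling, the deposited values, no filter, the mean over probes, outliers kept and a 1.5-fold threshold. Python 3.11.15, pandas 2.3.3, numpy 2.4.6, matplotlib 3.10.9 and R 4.3.3 were used.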

Additional observations from a re-analysis of the deposited data

Results flagged for a closer look

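Given here are genes whose oxygen differences pointed opposite ways in the 2 cultures, or whose differences between cultures did so at the 2 oxygen levels. Each difference was larger than 1 spot SD (0.15), and that of Hspd1 in four-factor cells, 0.16, was close to it. None of these differences was tested, since each condition has 1 array. The log2 oxygen difference of Nipsnap1 was 0.52 in four-factor cells and -0.41 in MEFs (0.92 apart), that of Bhlhe40, a HIF-induced repressor, 0.21 and -0.56 (0.78 apart), and that of Hspd1 0.16 and -0.31 (0.47 apart). Four-factor minus MEF was 1.63 for Bnip3 at 5% O2 and -0.23 at 21% O2 (1.86 apart), and 1.10 and -0.53 for Mgarp (1.63 apart). The same pair of values was 1.04 and -0.22 for Pdk1 (1.26 apart), 1.53 and -0.23 for Slc2a1 (1.76 apart), and -0.36 and 0.64 for Vdac1 (-1.0 apart). Each gap is also the oxygen difference in four-factor cells minus that in MEFs, so those of Bnip3 and Mgarp repeat values given above. At 21% O2 the negative differences of Bnip3, Pdk1 and Slc2a1 were close to -0.2, and that of Bnip3 was 0.18 with spike-in scaling. This scaling moved the median of all genes between cultures from -0.02 to 0.62 at 5% O2 and from -0.02 to 0.39 at 21% O2. Such shifts exceed the negative differences of Pdk1 and Slc2a1 at 21% O2 and of Vdac1 at 5% O2. The opposite signs of Bnip3, Pdk1, Slc2a1 and Vdac1 between oxygen levels thus depend on the scaling. The difference of Mgarp at 21% O2, from dim arrays, was -0.12 with spike-in scaling, smaller than the spot SD of 0.15.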

How the results depend on the processing

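Each member value was recomputed under 8 alternatives, 280 values in all, of which 239 moved by less than the spot SD of a difference, 3 crossed 2-fold and 11 changed sign. These 11 were differences between cultures, except for Pink1's oxygen difference in four-factor cells minus that in MEFs, which ranged from -0.18 to 0.095. No oxygen difference within a culture changed sign. Oxygen differences in four-factor cells ranged over 3.02 to 3.24 for Bnip3, 3.66 to 4.60 for Mgarp, 1.64 to 1.85 for Higd1a and 1.17 to 1.47 for Fam162a, and in MEFs over 1.16 to 1.32 for Bnip3 and 2.10 to 2.87 for Mgarp. Those that crossed 2-fold were Fam162a at 21% O2 with spike-in scaling (1.20), Fam162a at 5% O2 with quantile normalization (0.97) and Higd1a at 5% O2 with the mean over probes (0.37), all between cultures. Spike-in scaling moved the median of all genes to 0.14 and -0.11 (oxygen, four-factor cells and MEFs) and to 0.62 and 0.39 (between cultures at 5% and 21% O2), and median scaling moved the values between cultures to 0.15 and 0.13. With spike-in scaling or the 1.5-fold threshold, 1 member in place of 0 was higher in four-factor cells at 21% O2. Counts of genes higher and lower over the whole array moved as follows. With normexp they were 97 and 38 (oxygen, four-factor) and 196 and 132 (oxygen, MEFs). Without the filter on dim probes they were 901 and 904, 1070 and 1102, and between cultures 4056 and 9996 at 5% and 3039 and 9787 at 21% O2. At 1.5-fold they were 857 and 1021, 1053 and 870, 4326 and 4658, and 3537 and 3957 in the same order. Spike-in scaling gave 104 lower (oxygen, four-factor), 5447 and 1706 at 5% O2 and 3490 and 1653 at 21% O2. The cause was not tested. The labels carry no replicate numbers, and each oxygen difference already compares 2 arrays of 1 slide, so no further pairing was fitted. Array number limits all precision.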
